A study of Drosophila melanogaster with 16 samples.

Results

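EC-tagged RNA from neuroblasts was set against EC-tagged RNA from neurons after 12 h of chase, the last time point of a pulse-chase experiment in Drosophila melanogaster larvae. The comparison took the 4 libraries of that time point, 2 labelled neuroblast and 2 labelled neuron, of 16 libraries in all. The tissue was the crudely dissected central nervous system of larvae in the third instar (L3), reared at 25 °C. Larvae of the first genotype, insc_CD:UPRT, carried insc-Gal4, which drives UAS-CD:UPRT in neuroblasts and other neural progenitors, and larvae of the second, nSyb_CD:UPRT, carried nSyb-Gal4, which drives it in neurons. Both genotypes were fed 5-ethynylcytosine (5EC) for 12 h and then an excess of untagged uridine for 12 h. All brain RNA was extracted, tagged RNA was biotinylated and captured on beads, and libraries were made on the beads. Each group is defined by its driver and not by sorted cells, so a library can hold RNA of any cell in the dissected tissue that was captured, and fewer cells of a type cannot be told apart from less RNA per cell. The labels number the replicates 1 and 2. The methods name independent feeding and RNA processing in triplicate, and duplicate RNA samples for biotinylation of each genotype and time, and no source ties the 2 libraries to separate feedings, so p-values here measure only the spread between these libraries, which may be technical.

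CD:UPRT is a fusion of cytosine deaminase and uracil phosphoribosyltransferase. It turns 5EC into a tagged nucleotide that polymerases build into new RNA, so tagged RNA marks the cells that express the fusion. During the chase, tagged transcripts are no longer made and those already made decay, so what remains after a long chase is weighted towards long-lived transcripts. Neuroblasts are the dividing stem cells of the larval brain. They divide asymmetrically, renew themselves and give rise to neurons and glia through smaller progenitors.

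The libraries of a driver differed widely from each other. The insc-Gal4 libraries held 9713875 and 18045994 nuclear counts, against 8115058 and 90019227 in the nSyb-Gal4 libraries. At least 10 counts were reached by 1853 and 7323 nuclear genes in the insc-Gal4 libraries and by 5161 and 13903 of 14207 nuclear genes in the nSyb-Gal4 libraries. Mitochondrially encoded transcripts took 12.1% and 9.67% of counts in the insc-Gal4 libraries, against 91.6% and 11.9% in the nSyb-Gal4 libraries. Replicate 1 of nSyb-Gal4 therefore stood apart by its mitochondrial share, and replicate 1 of insc-Gal4 by its low number of genes.

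**Figure D1:**
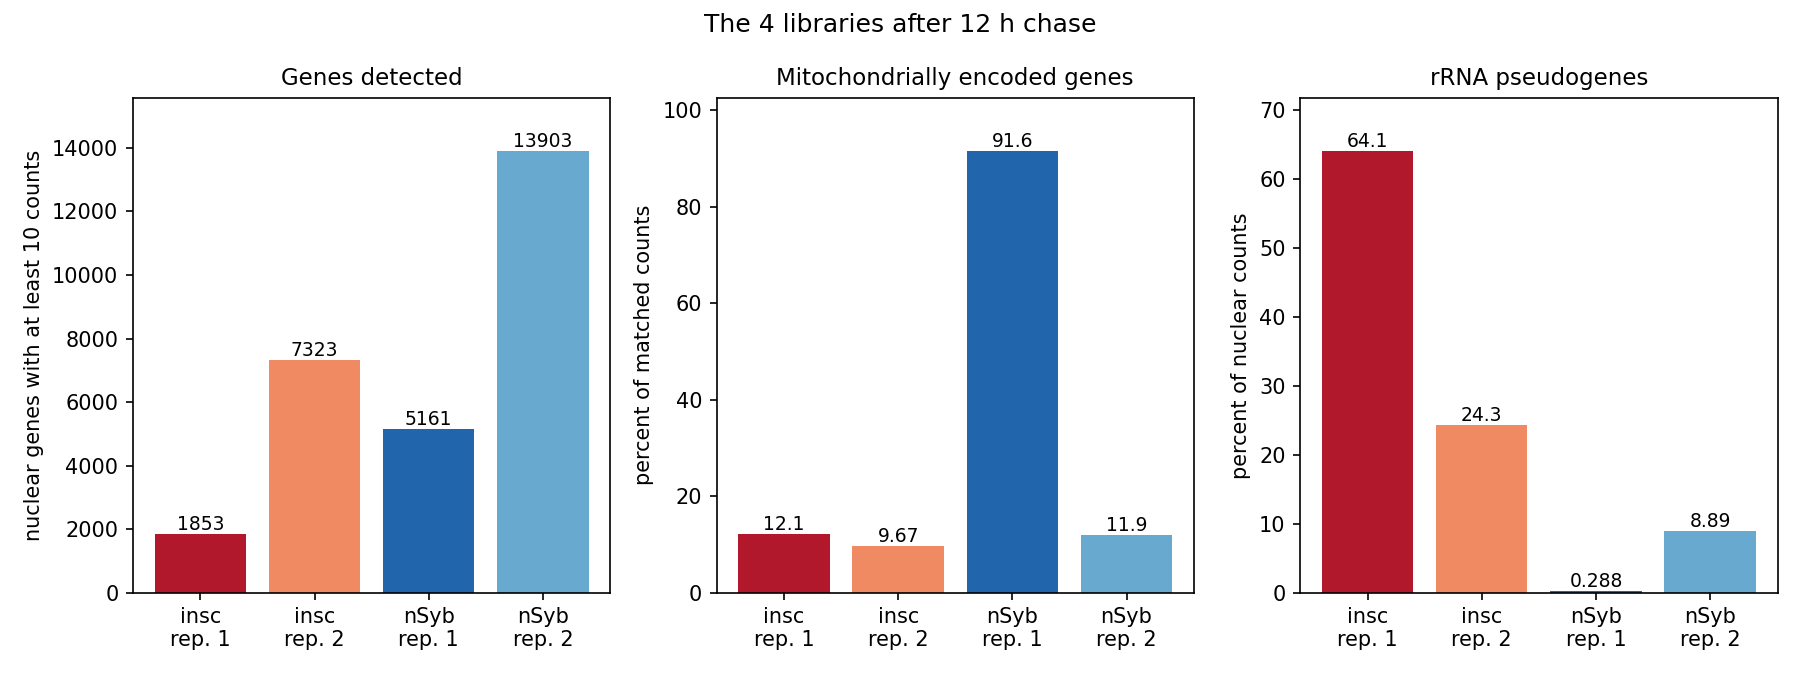
Bars give, for each library after 12 h chase, the number of nuclear genes with at least 10 counts, the percent of matched counts on mitochondrially encoded genes and the percent of nuclear counts on rRNA pseudogenes. The insc-Gal4 libraries had 1853 and 7323 genes and the nSyb-Gal4 libraries 5161 and 13903, and 91.6% of the counts of nSyb-Gal4 replicate 1 were mitochondrial.

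Rank correlations across genes, which are not independent replicates, did not separate the drivers. Over the 14207 nuclear genes, Spearman's rho was 0.588 between the insc-Gal4 libraries and 0.461 between the nSyb-Gal4 libraries. It was 0.589 between insc-Gal4 replicate 2 and nSyb-Gal4 replicate 2 and 0.284 between the replicates 1 of both drivers. A total of 3116 genes had no count in nSyb-Gal4 replicate 1 and at least 100 counts in nSyb-Gal4 replicate 2.

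Some of the markers of neuroblasts had no counts after 12 h of chase in the libraries labelled neuroblast. Deadpan (dpn), Miranda (mira) and Worniu (wor), which mark neuroblasts, had 0 counts in both insc-Gal4 libraries, where the floor of 3 counts is 0.659 and 0.291 scaled CPM, the CPM over nuclear genes after TMM scaling. The same 3 genes had 0 counts in nSyb-Gal4 replicate 1, and in nSyb-Gal4 replicate 2 they had 21.1, 18.1 and 1.84 scaled CPM. At earlier times some libraries labelled neuroblast did hold them, with mira at 267 counts in replicate 2 at the end of the pulse and 731 in replicate 2 with 3 h of chase, wor at 238 in replicate 1 at the end of the pulse and 178 in replicate 2 with 3 h of chase, and dpn at 52 in replicate 2 with 3 h of chase. Asense (ase), a proneural factor of neuroblasts, was at 0 and 7.94 scaled CPM in the insc-Gal4 libraries, below 26.4 and 25.1 in the nSyb-Gal4 libraries. The marker klu had 0 and 250 counts in the insc-Gal4 libraries, against 12 and 8109 in the nSyb-Gal4 libraries. The transcript of insc itself was at 1.10 and 35.1 scaled CPM in the insc-Gal4 libraries, against 12.5 and 38.7 in the nSyb-Gal4 libraries, and nSyb, a synaptic vesicle protein, was at 104 and 206 against 305 and 152. Both genes overlapped between drivers. The groups are therefore called by their drivers below.

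Of the 22 neuroblast and progenitor regulators, 15 passed the filter on low counts. Of these, 0 had both insc-Gal4 libraries above both nSyb-Gal4 libraries and 7 had the opposite order. Among all 9085 genes tested, 9.47% had both insc-Gal4 libraries above both nSyb-Gal4 libraries and 33.1% the opposite order, and these shares were 3.82% and 43.3% when libraries were scaled by nuclear totals instead of TMM. Of the 9085, 1492 were at 0 in both insc-Gal4 libraries and passed the filter through nSyb-Gal4 counts, which fixed their order. The 33.1% includes them. The 7 were ase, brat, cas, chinmo, grh, numb and pros. Prospero (pros), a homeodomain factor that ends self-renewal in the daughters of neuroblasts, was at 118 and 60.6 scaled CPM in the insc-Gal4 libraries, against 584 and 354 in the nSyb-Gal4 libraries. Brain tumor (brat), a translational repressor, was at 187 and 80.4 against 299 and 236. Chinmo, which marks young neuroblasts and the neurons born from them, was at 5.27 and 349.9 against 581 and 395. The regulators together took 0.0704% and 0.0842% of protein-coding counts in the insc-Gal4 libraries and 0.490% and 0.390% in the nSyb-Gal4 libraries, so the summed level did not overlap. Leaving out nSyb-Gal4 replicate 1, 0 of 15 lay above in insc-Gal4 and 12 in nSyb-Gal4, beside 10.3% and 55.7% of all genes. Scaled by all counts, mitochondrial ones included, 0 and 3 did, beside 4.42% and 30% of all genes, so the share of regulators above in nSyb-Gal4 was then no higher than that of all genes.

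Genes of the division machinery were detected about as often as all nuclear genes after 12 h of chase. Of 22 genes of the cell cycle and DNA replication, 2 and 13 reached 10 counts in the insc-Gal4 libraries, against 8 and 22 in the nSyb-Gal4 libraries. Of all 14207 nuclear genes, 1853 and 7323 did in the insc-Gal4 libraries and 5161 and 13903 in the nSyb-Gal4 libraries. The summed share of the 22 genes in protein-coding counts was 0.0206% and 0.0137% in the insc-Gal4 libraries. In the nSyb-Gal4 libraries it was 0.137% and 0.0821%. Nearly all counts of the list in insc-Gal4 replicate 1 came from Cyclin D (CycD), which overlapped between drivers. CycD had 693 and 58 counts in the insc-Gal4 libraries, against 0 and 2645 in the nSyb-Gal4 libraries. Cdk4, the partner kinase of Cyclin D, was at 0 and 10.3 scaled CPM in the insc-Gal4 libraries, against 163 and 14.4 in the nSyb-Gal4 libraries. Of the 14 members tested, 1 (PCNA) lay above in insc-Gal4 (7.14%) and 6 in nSyb-Gal4 (42.9%), near the 9.47% and 33.1% of all genes.

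Neuronal genes were present in all 4 libraries. All 25 passed the filter, 4 lay above in both insc-Gal4 libraries, 10 lay above in both nSyb-Gal4 libraries and 11 overlapped. These shares of 16% and 40% were near those of all genes, 9.47% and 33.1%, so the orders below describe single genes and not the list. Among the 10 were the channels para, Sh and cac of the action potential and the synapse. The sodium channel para was at 111 and 194 scaled CPM in the insc-Gal4 libraries, against 507 and 549 in the nSyb-Gal4 libraries, and the potassium channel Sh was at 8.12 and 54.2 against 598 and 466. The neuronal RNA-binding protein elav was at 109 and 70.3 scaled CPM in the insc-Gal4 libraries, against 467 and 187 in the nSyb-Gal4 libraries. In each of these genes the lower nSyb-Gal4 library was above the higher insc-Gal4 library.

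The 4 neuronal genes above in insc-Gal4 were Rbp9, VGlut, nrv3 and cpx. Rbp9, an RNA-binding protein related to elav, was at 933 and 861 scaled CPM in the insc-Gal4 libraries, against 152 and 185 in the nSyb-Gal4 libraries. VGlut, the vesicular glutamate transporter, was at 283 and 325 against 7.58 and 194, and cpx (complexin, a regulator of vesicle fusion) at 569 and 548 against 277 and 409. As a share of protein-coding counts, the 25 genes took 0.519% and 0.382% in the insc-Gal4 libraries and 1.35% and 0.933% in the nSyb-Gal4 libraries. When libraries were scaled by nuclear totals instead, 1 gene lay above in insc-Gal4 and 20 in nSyb-Gal4, and scaled by DESeq2 size factors 2 and 7 did, beside 3.82% and 43.3% and then 11% and 33% of all genes.

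**Figure D2:**
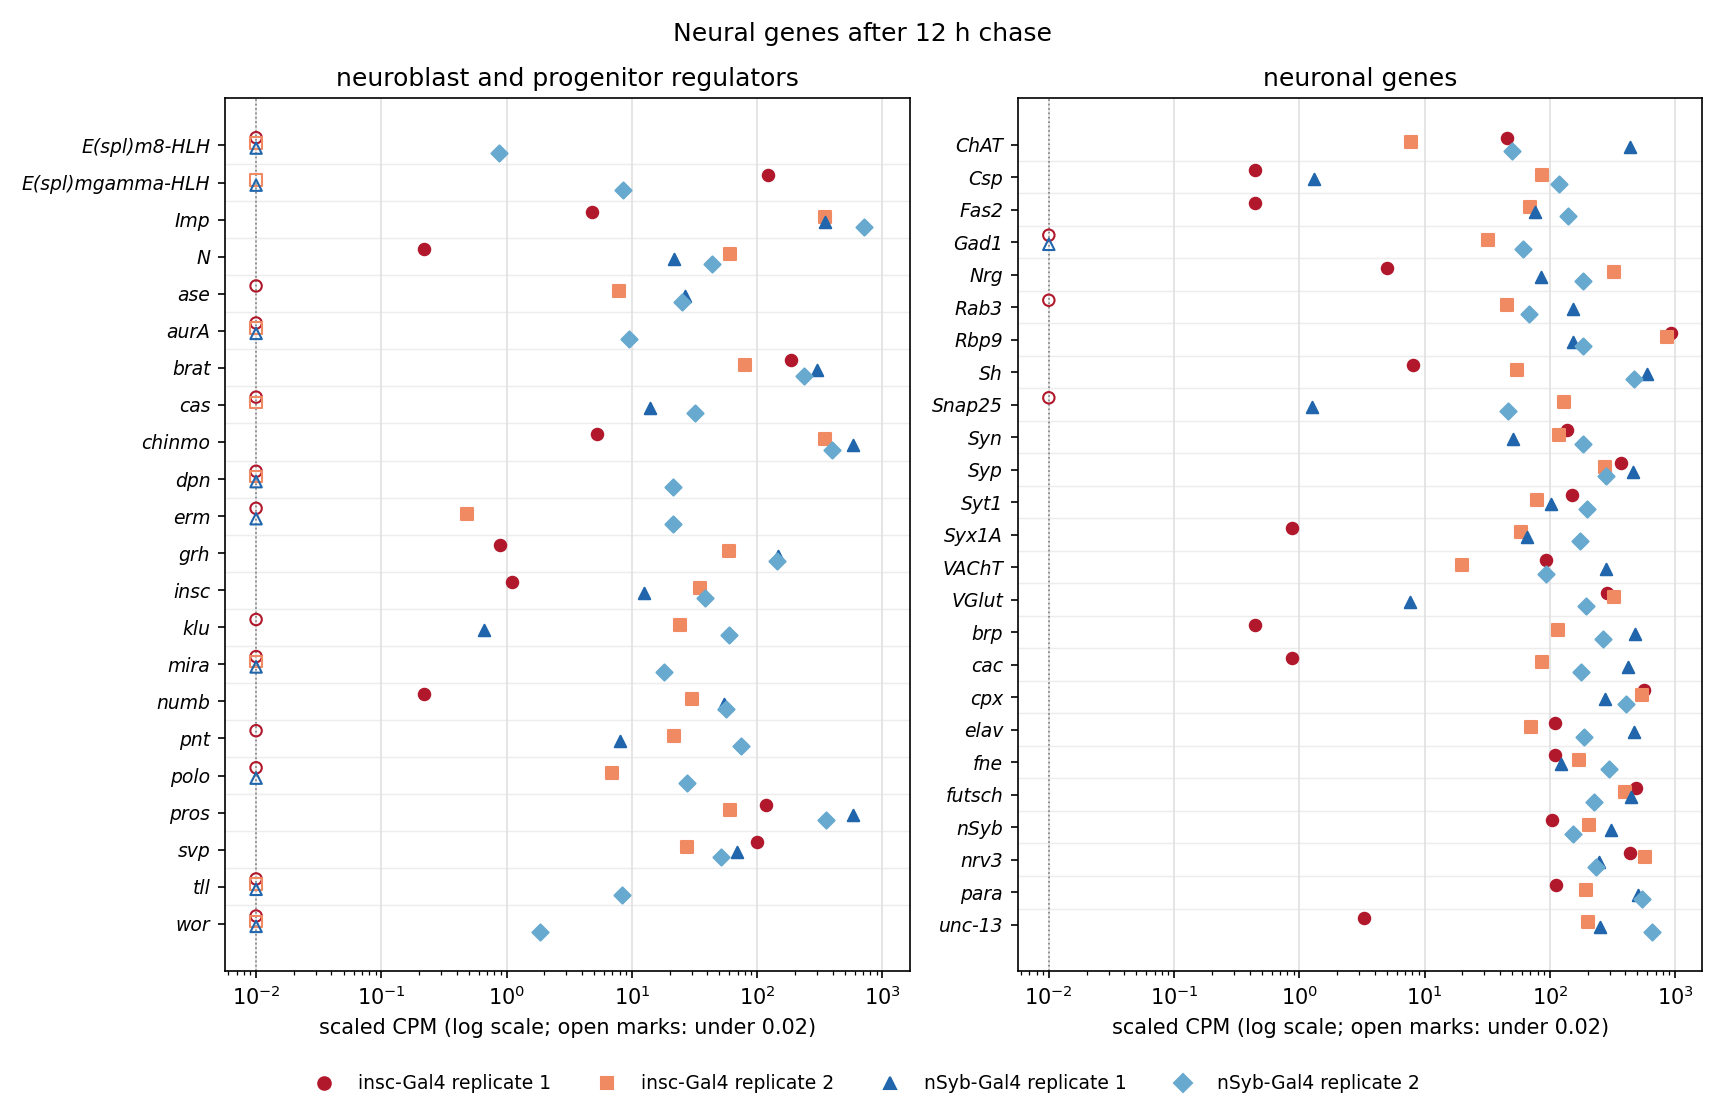
Each row is a gene and each mark 1 library after 12 h chase, with scaled CPM on a log axis and open marks for values under 0.02. The neuroblast markers dpn, mira and wor are open in every library except nSyb-Gal4 replicate 2, while Rbp9 is at 933 and 861 in the insc-Gal4 libraries and at 152 and 185 in the nSyb-Gal4 libraries.

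No gene passed the test between drivers. edgeR's quasi-likelihood test called 0 genes higher in insc-Gal4 and 0 higher in nSyb-Gal4 at an adjusted p under 0.05 (Benjamini-Hochberg), which is 0% of 9085 in each direction, and the smallest adjusted p was 0.754. At an unadjusted p under 0.05 it gave 16 and 309 genes. Without nSyb-Gal4 replicate 1 it called 21 genes higher in insc-Gal4 and 1 higher in nSyb-Gal4, and without nSyb-Gal4 replicate 2 it called 114 and 5. DESeq2, on the same counts, gave an adjusted p for 5738 genes and called 257 higher in insc-Gal4 (4.48%) and 805 higher in nSyb-Gal4 (14.0%). It called 0 of 14 neuroblast and progenitor regulators and 0 of 25 neuronal genes in either direction. The common biological coefficient of variation in edgeR, its estimate of the spread between libraries of a driver relative to the mean of a gene, was 2.17. An exact permutation test on 2 against 2 libraries cannot go below a two-sided p of 0.333. Differences below are therefore described by the order of the 4 libraries, and log2 differences (insc-Gal4 minus nSyb-Gal4) are given relative to the median of all genes tested, which was -0.83.

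Ribosomal protein transcripts had the largest share of members above in insc-Gal4 among the lists of the plot of list orders. Of 86 genes for cytosolic ribosomal proteins, 82 passed the filter. Of these, 69 (84.1%) lay above in both insc-Gal4 libraries and 0 in both nSyb-Gal4 libraries, beside 9.47% and 33.1% of all genes. Their median log2 difference was 4.34 relative to all genes. RpS3A, a protein of the small subunit encoded at 65225 to 67207 on the minus strand of chromosome 4, was at 3682 and 5043 scaled CPM in the insc-Gal4 libraries, against 239 and 319 in the nSyb-Gal4 libraries. RpL5, which binds 5S rRNA in the large subunit, was at 3691 and 4785 against 273 and 409. RpLP0, of the ribosomal stalk, was at 2449.7 and 4127 against 0.824 and 173. The insc-Gal4 libraries were close to each other in these genes, while the nSyb-Gal4 libraries were close in RpS3A and RpL5 and far apart in RpLP0.

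Summed over the list, ribosomal proteins took 8.71% and 8.82% of protein-coding counts in the insc-Gal4 libraries, against 0.327% and 2.58% in the nSyb-Gal4 libraries. The median member was at 692 and 1199 scaled CPM in the insc-Gal4 libraries and at 1.15 and 172 in the nSyb-Gal4 libraries. The 13 members that overlapped included RpL29, RpL39, RpL36A and RpS15Ab, all at 0 in insc-Gal4 replicate 1. The 4 that did not pass the filter, RpL10Aa, RpS10a, RpS19b and RpS28a, are second copies of ribosomal protein genes and had counts in nSyb-Gal4 replicate 2 alone. Without nSyb-Gal4 replicate 1, 69 lay above in insc-Gal4 and 1 in nSyb-Gal4, beside 10.3% and 55.7% of all genes. Scaled by nuclear totals, which moved the median of all genes to -2.48, 42 and 1 did, beside 3.82% and 43.3%. DESeq2 called 23 of 81 members higher in insc-Gal4 and 0 higher in nSyb-Gal4, beside 4.48% and 14.0% of all genes.

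**Figure D3:**
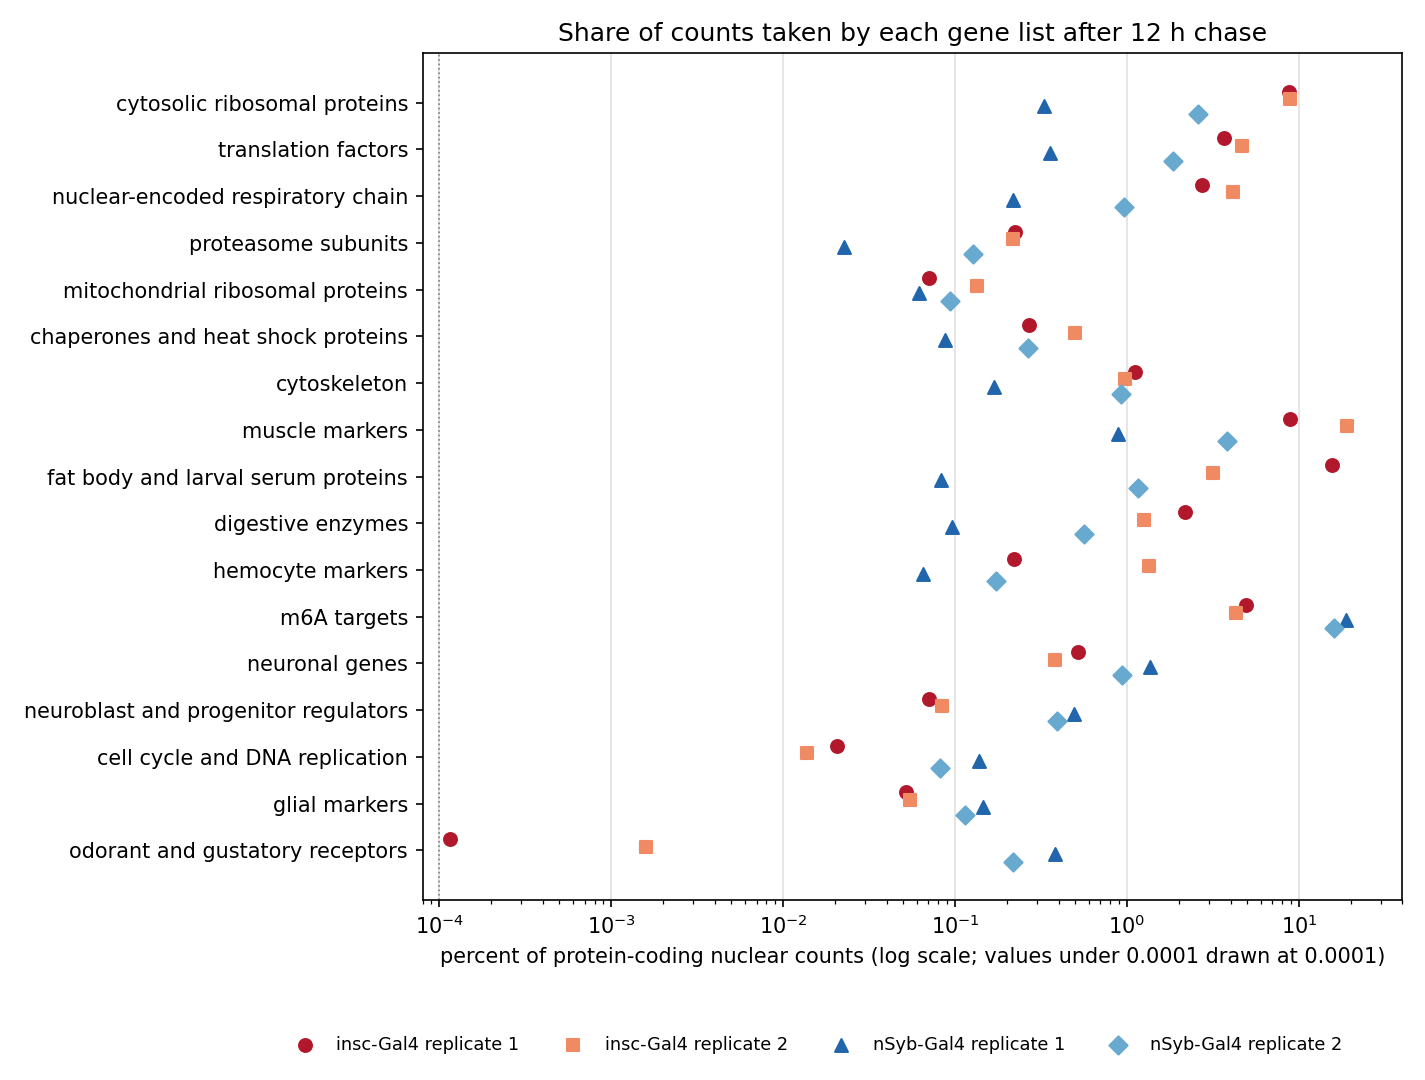
Marks give the percent of protein-coding nuclear counts taken by each gene list in each of the 4 libraries after 12 h chase, on a log axis. Ribosomal proteins were at 8.71% and 8.82% in the insc-Gal4 libraries, against 0.327% and 2.58% in the nSyb-Gal4 libraries, while m6A targets were at 4.93% and 4.29% against 18.7% and 16.1%.

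Other parts of the translation and energy machinery leaned the same way, less uniformly. Of 51 translation factors 42 were tested, of which 17 lay above in insc-Gal4 and 3 in nSyb-Gal4, beside 9.47% and 33.1% of all genes. The list took 3.68% and 4.66% of protein-coding counts in the insc-Gal4 libraries, against 0.358% and 1.85% in the nSyb-Gal4 libraries. The elongation factor eEF1alpha1, which brings aminoacyl-tRNA to the ribosome, was at 13892 and 23405 scaled CPM in the insc-Gal4 libraries, against 4.89 and 5997 in the nSyb-Gal4 libraries. The helicase eIF4A was at 2297 and 3362 against 134 and 416. Scaled by nuclear totals, 7 factors lay above in insc-Gal4 and 6 in nSyb-Gal4, beside 3.82% and 43.3% of all genes. Without insc-Gal4 replicate 1, 35 lay above in insc-Gal4 and 3 in nSyb-Gal4, beside 35.0% and 35.4% of all genes.

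Of 72 nuclear-encoded subunits of the respiratory chain and ATP synthase, 62 passed the filter, and of these 32 lay above in insc-Gal4 and 3 in nSyb-Gal4. ATPsynbeta, the catalytic subunit of the ATP synthase, was at 3655 and 11976 scaled CPM in the insc-Gal4 libraries, against 65.2 and 372 in the nSyb-Gal4 libraries. The 3 of the opposite order, COX4L, ND-51L1 and UQCR-11L, were all at 0 in both insc-Gal4 libraries. They passed the filter through nSyb-Gal4 counts, which fixed their order. DESeq2 called 14 of 60 members higher in insc-Gal4 and 2 higher in nSyb-Gal4, beside 4.48% and 14.0% of all genes. In the main scaling the shares were 51.6% and 4.84%, beside 9.47% and 33.1% of all genes. By nuclear totals 24 lay above in insc-Gal4 and 5 in nSyb-Gal4, beside 3.82% and 43.3% of all genes. Without insc-Gal4 replicate 1, 55 and 4 did, beside 35.0% and 35.4% of all genes.

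Mitochondrial ribosomal proteins did not show it: of 54 tested out of 73, 5 lay above in insc-Gal4 and 2 in nSyb-Gal4, and 47 overlapped. In these genes both replicates 1 were nearly empty, with 42 of 54 at 0 in insc-Gal4 replicate 1 and 42 of 54 at 0 in nSyb-Gal4 replicate 1. Without insc-Gal4 replicate 1, 47 lay above in insc-Gal4 and 2 in nSyb-Gal4, beside 35.0% and 35.4% of all genes. Of 31 proteasome subunits tested out of 32, 12 lay above in insc-Gal4 and 0 in nSyb-Gal4, beside 9.47% and 33.1% of all genes. Without insc-Gal4 replicate 1, 30 and 0 did, beside 35.0% and 35.4% of all genes. Of 20 chaperones, 7 lay above in insc-Gal4 and 2 in nSyb-Gal4, beside 9.47% and 33.1% of all genes. By nuclear totals 0 and 5 did, beside 3.82% and 43.3% of all genes, and without insc-Gal4 replicate 1, 17 and 2 did. Hsc70-4, the main cytosolic Hsp70 cognate, was at 879 and 4244 scaled CPM in the insc-Gal4 libraries, against 1.70 and 541 in the nSyb-Gal4 libraries.

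**Figure D4:**
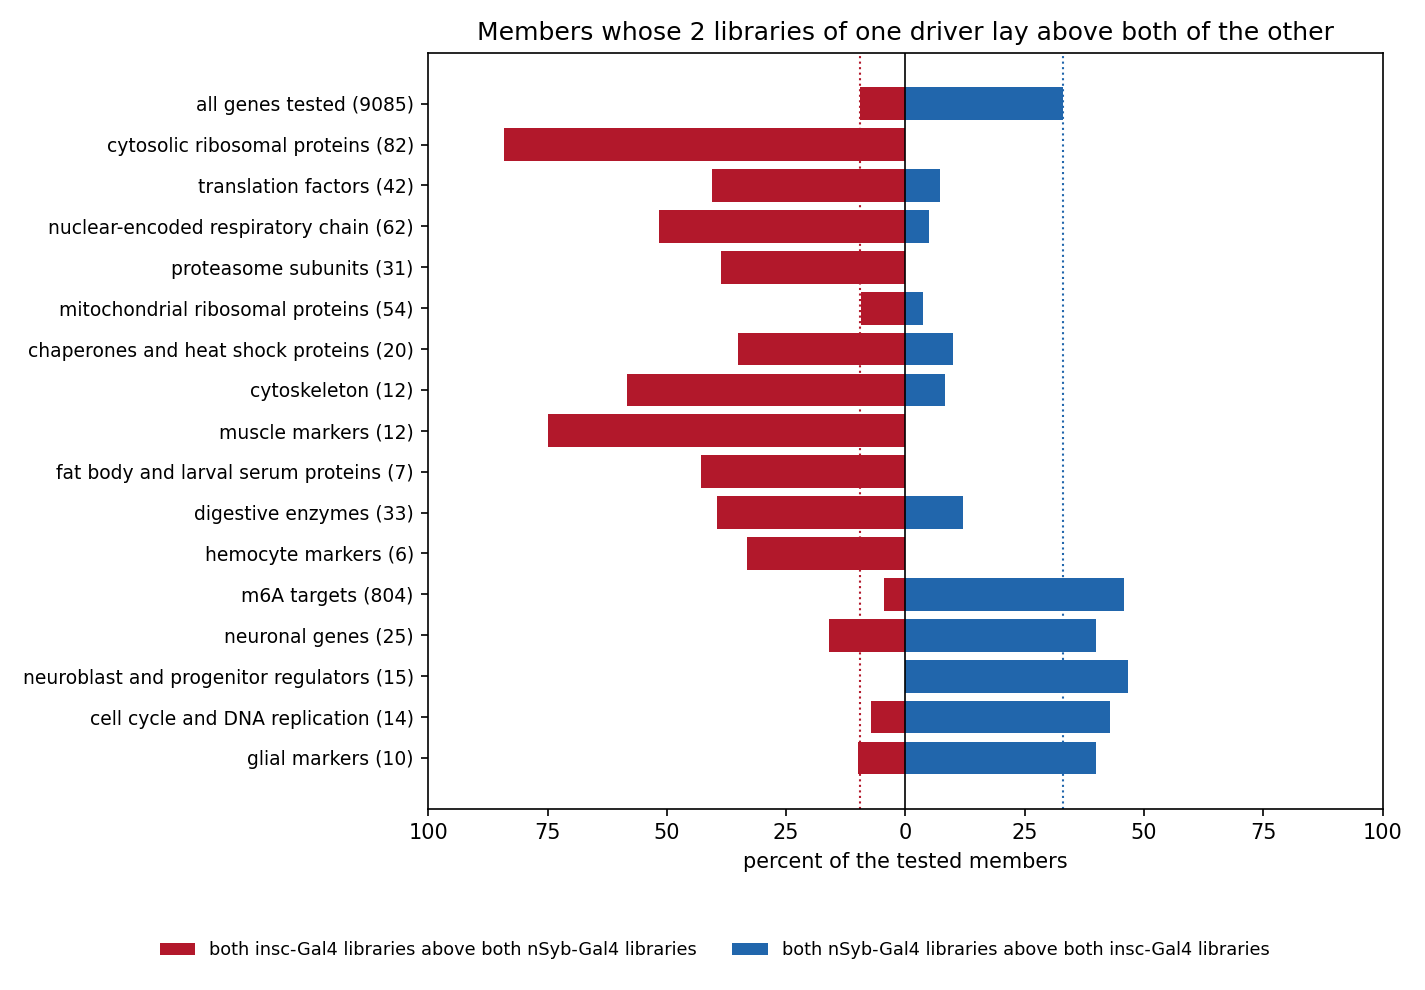
Bars give the percent of the tested members of each list (number in brackets) with both insc-Gal4 libraries above both nSyb-Gal4 libraries, to the left, and the opposite order, to the right. Dotted lines mark all genes tested, at 9.47% and 33.1%, against 84.1% and 0% for ribosomal proteins.

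The study lists m6A targets as methylated mRNAs from separate immunoprecipitation samples. Their transcripts leaned to nSyb-Gal4 in the order of the libraries and in share of counts, but not in DESeq2 calls beside all genes. Of 867 genes named, 852 were in both tables and 804 passed the filter. Of these, 37 (4.60%) lay above in insc-Gal4, beside 9.47% of all genes, and 369 (45.9%) lay above in nSyb-Gal4, beside 33.1%. Without insc-Gal4 replicate 1 the counts were 117 and 411, and without nSyb-Gal4 replicate 2 they were 133 and 427, beside 35.0% and 35.4% and then 21.6% and 37.6% of all genes. Scaled by all counts they were 9 and 288, beside 4.42% and 30%. They took 4.93% and 4.29% of protein-coding counts in the insc-Gal4 libraries and 18.7% and 16.1% in the nSyb-Gal4 libraries. The mucin gene Muc96D alone held 4.26% of the protein-coding counts of nSyb-Gal4 replicate 2. Without it the targets took 4.93% and 4.17% in the insc-Gal4 libraries, against 18.6% and 11.8% in the nSyb-Gal4 libraries. Their median log2 difference was -0.87 relative to all genes, within the spread between libraries of 1.84, and without insc-Gal4 replicate 2 it was 2.81. DESeq2 called 9 of 691 higher in insc-Gal4 and 43 higher in nSyb-Gal4, 1.30% and 6.22% of the targets beside 4.48% and 14.0% of all genes.

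The targets were long, and transcript length moved with the order of the libraries. The longest annotated transcript had a median of 4422.5 nt over the targets tested and 2124 nt over all genes tested. Of the 2271 genes of 3610 nt and more, 5.20% lay above in insc-Gal4 and 43.2% in nSyb-Gal4, close to the shares of the targets. Of the 2272 genes of 1289 nt and less, 12.9% lay above in insc-Gal4 and 31.2% in nSyb-Gal4. The median length was 882 nt over ribosomal proteins and 868 nt over respiratory chain subunits. It was 4395 nt over the neuroblast and progenitor regulators tested and 6976 nt over the neuronal genes. Over all 13882 protein-coding genes, Spearman's rho between count and length was 0.296 and 0.399 in the insc-Gal4 libraries, against 0.430 and 0.650 in the nSyb-Gal4 libraries. Over genes with at least 10 counts it was -0.219 (1836 genes) and 0.180 (7290 genes) in the insc-Gal4 libraries, against 0.329 (5105 genes) and 0.647 (13673 genes) in the nSyb-Gal4 libraries, so among detected genes the sign differed in insc-Gal4 replicate 1. The part of length in these differences was not tested.

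Genes of the m6A machinery and of mRNA decay showed no common order. Of 7 m6A writers and readers tested, 1 lay above in insc-Gal4 (14.3%) and 2 in nSyb-Gal4 (28.6%), near the 9.47% and 33.1% of all genes. The reader Ythdf was at 0.659 and 21.0 scaled CPM in the insc-Gal4 libraries, against 50.1 and 39.6 in the nSyb-Gal4 libraries, and the methyltransferase Mettl3 had counts in nSyb-Gal4 replicate 2 alone. Of 18 mRNA decay factors, 2 lay above in insc-Gal4 (11.1%) and 6 in nSyb-Gal4 (33.3%), also near the shares of all genes. The poly(A)-binding protein pAbp was at 19411 and 14095 scaled CPM in the insc-Gal4 libraries, against 95.6 and 2575 in the nSyb-Gal4 libraries, while Not1, the scaffold of the deadenylase complex, overlapped at 121 and 614 against 697 and 377.

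Transcripts of tissues outside the nervous system were abundant, and more so in the insc-Gal4 libraries. The 12 muscle markers took 8.83% and 19.1% of protein-coding counts in the insc-Gal4 libraries, against 0.881% and 3.84% in the nSyb-Gal4 libraries. Of the 12, 9 lay above in insc-Gal4 and 0 in nSyb-Gal4, beside 9.47% and 33.1% of all genes. By nuclear totals 7 and 0 did, beside 3.82% and 43.3% of all genes. Mhc, the muscle myosin heavy chain, was at 10390 and 73314 scaled CPM in the insc-Gal4 libraries, against 130 and 2806 in the nSyb-Gal4 libraries. The 8 fat body and larval serum protein genes took 15.6% and 3.17% in the insc-Gal4 libraries, against 0.0832% and 1.16% in the nSyb-Gal4 libraries. Of 7 tested, 3 lay above in insc-Gal4 and 0 in nSyb-Gal4, beside 9.47% and 33.1% of all genes. Lsp2, a serum protein of the fat body, was at 16602 scaled CPM in insc-Gal4 replicate 1 and at 2.62 in insc-Gal4 replicate 2, against 1.32 and 29.0 in the nSyb-Gal4 libraries, so 1 library held nearly all of it. DESeq2 called 5 of 12 muscle markers and 5 of 7 fat body genes higher in insc-Gal4 and 0 of either list higher in nSyb-Gal4. Of all genes with an adjusted p, it called 4.48% and 14.0%.

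Blood cell markers took 0.219% and 1.34% in the insc-Gal4 libraries, against 0.0649% and 0.173% in the nSyb-Gal4 libraries, with He at 0 in all libraries except nSyb-Gal4 replicate 2. Of 6 markers tested, 2 lay above in insc-Gal4 and 0 in nSyb-Gal4, beside 9.47% and 33.1% of all genes. The 2 were the collagen genes Col4a1 and vkg, which blood cells and fat body make. Scaled by nuclear totals, 0 lay above in insc-Gal4 and 1 in nSyb-Gal4, beside 3.82% and 43.3% of all genes. Col4a1 was at 1247 and 10459 scaled CPM in the insc-Gal4 libraries, against 0 and 591 in the nSyb-Gal4 libraries. Glial markers took 0.0516% and 0.0548% in the insc-Gal4 libraries, against 0.146% and 0.114% in the nSyb-Gal4 libraries, with repo at 0 and 24.3 scaled CPM against 0.769 and 12.8. Of the 10 glial genes, 1 (alrm, of astrocyte-like glia) lay above in insc-Gal4 and 4 in nSyb-Gal4 (Gli, loco, wrapper and zyd), near the 9.47% and 33.1% of all genes. The glue protein Sgs1 of the salivary gland was at 0 and 3.49 scaled CPM in the insc-Gal4 libraries, against 771 and 32.9 in the nSyb-Gal4 libraries, with 2 of 6 glue genes tested. The other glue gene tested, Sgs5, overlapped, at 137 and 0 in the insc-Gal4 libraries against 0 and 5.31 in the nSyb-Gal4 libraries. The part of these other cell types in the ribosomal and respiratory differences was not tested.

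Digestive enzymes, a list added after values were seen, took 2.16% and 1.25% of protein-coding counts in the insc-Gal4 libraries, against 0.0955% and 0.563% in the nSyb-Gal4 libraries. Of 33 tested, 13 lay above in insc-Gal4 and 4 in nSyb-Gal4, beside 9.47% and 33.1% of all genes. Without nSyb-Gal4 replicate 1 the counts were 13 and 16, beside 10.3% and 55.7% of all genes. The serine protease Jon65Aiv was at 2439 and 3151 scaled CPM in the insc-Gal4 libraries, against 0.879 and 888 in the nSyb-Gal4 libraries.

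The 12 genes with the smallest p in each direction, among genes whose groups did not overlap, did not pass the adjusted threshold, and all had an edgeR adjusted p of 0.754. Trypsin gene gammaTry, at 11349061 to 11349870 on chromosome 2R, was at 319 and 1189 scaled CPM in the insc-Gal4 libraries and had 0 counts in both nSyb-Gal4 libraries. It passed the filter through insc-Gal4 counts, which fixed its order. Its insc-Gal4 mean was 8070 times the mean floor of 3 counts in the nSyb-Gal4 libraries. Its near-identical neighbour CG30025 was given the same count in insc-Gal4 replicate 1 (1452.2), so how the reads divide between copies is uncertain. The lysozymes LysB and LysD share reads in the same way. LysB was at 5692 and 962 scaled CPM in the insc-Gal4 libraries, against 0 and 1.38 in the nSyb-Gal4 libraries.

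On the insc-Gal4 side the list went on with single genes of hormone synthesis, serum and muscle. Spookier (spok), an enzyme of ecdysone synthesis in the prothoracic gland, was at 767 and 42.0 scaled CPM in the insc-Gal4 libraries, against 0 and 0.520 in the nSyb-Gal4 libraries. Its log2 difference was 11.37 relative to all genes, with a standard error of 4.33. It was the only 1 of 4 ring gland markers tested that lay above in insc-Gal4. The other 3 overlapped, and 0 lay above in nSyb-Gal4. The ring gland marker nvd had 796 and 0 counts in the insc-Gal4 libraries, against 6 and 1749 in the nSyb-Gal4 libraries. For dib the counts were 0 and 0 against 0 and 1692. Lsp1alpha, a larval serum protein, was at 18853 and 237 scaled CPM in the insc-Gal4 libraries, against 0.879 and 69.3 in the nSyb-Gal4 libraries. TpnC25D, a troponin C, was at 948 and 1287 against 0.110 and 8.07. The remaining genes were CG30160, Obp99b, regucalcin and the rRNA pseudogenes 28SrRNA-Psi:CR45859 and 28SrRNA-Psi:CR45862. In spok, Lsp1alpha, CG30025 and Obp99b, insc-Gal4 replicate 1 was far above replicate 2.

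**Figure D5:**
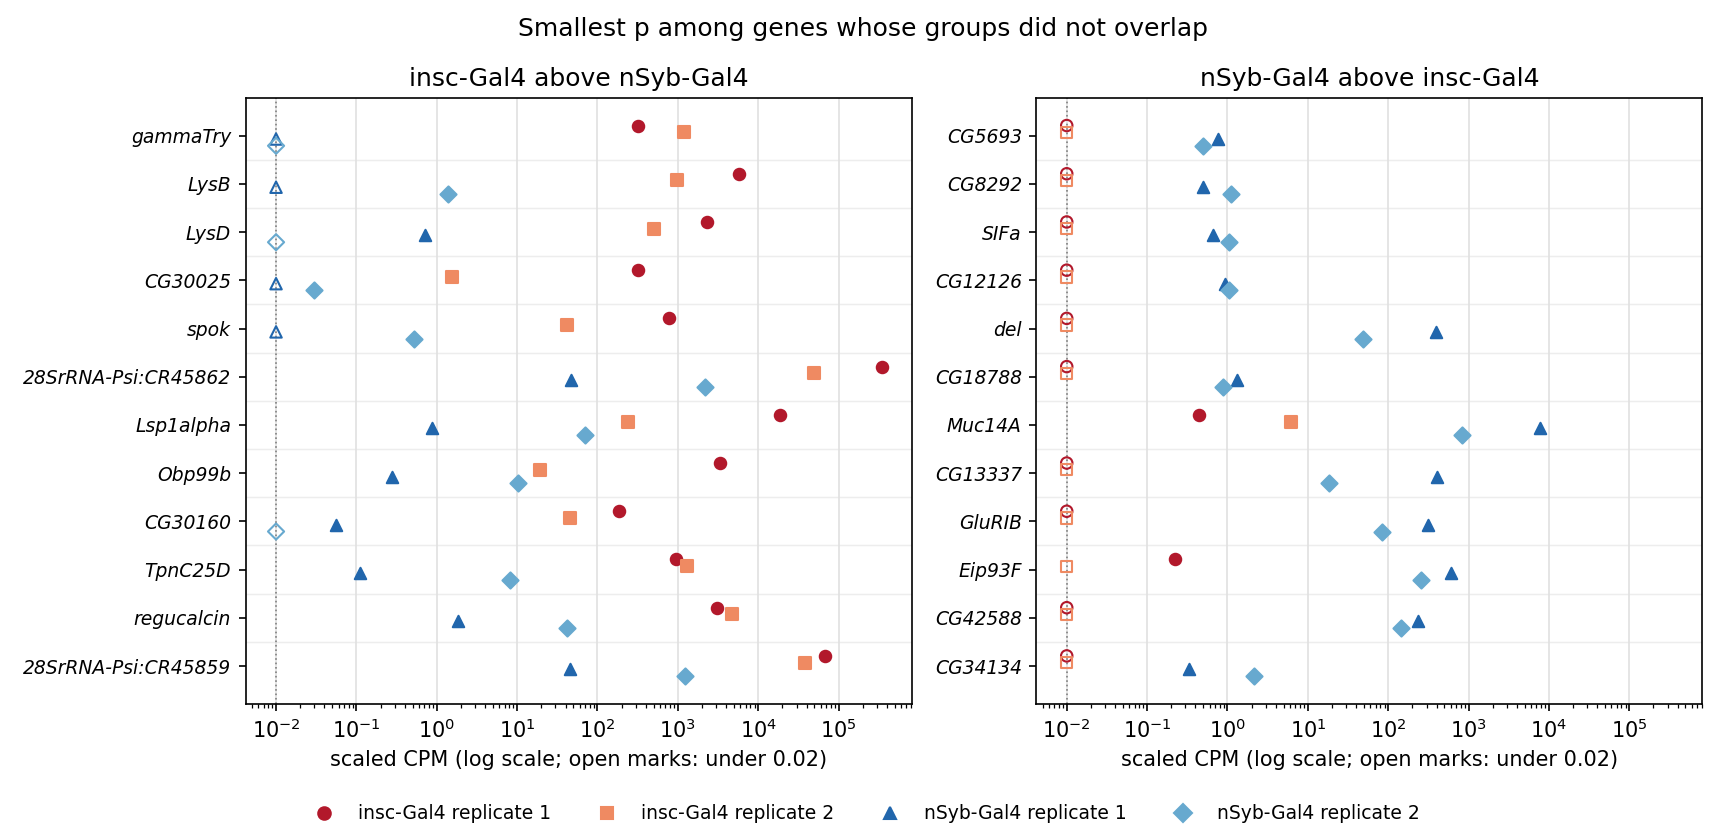
Each row is a gene, chosen as the 12 smallest p in each direction among genes whose groups did not overlap, and each mark 1 library after 12 h chase, with scaled CPM on a log axis and open marks under 0.02. Of the 12 genes above in nSyb-Gal4, 10 have 0 counts in both insc-Gal4 libraries, and 6 of those lie between 0.330 and 2.12 scaled CPM in the nSyb-Gal4 libraries.

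On the nSyb-Gal4 side, 10 of the 12 genes with the smallest p had 0 counts in both insc-Gal4 libraries. These 10 passed the filter through nSyb-Gal4 counts, which fixed their order, so their rank by p is no support for a difference. In 6 of them, CG5693, CG8292, SIFa, CG12126, CG18788 and CG34134, nSyb-Gal4 replicate 1 held 6 to 24 counts, and the fold against the floor was at least 1.33 for CG5693 and at least 2.58 for CG34134. SIFa, which encodes the neuropeptide SIFamide, had 12 and 143 counts in the nSyb-Gal4 libraries and was at least 1.80-fold higher there. The other 4 with 0 counts in both insc-Gal4 libraries were GluRIB, del, CG13337 and CG42588. GluRIB, a subunit of the AMPA-type glutamate receptor at 9251978 to 9288522 on chromosome 3L, was at 0 in both insc-Gal4 libraries, against 311 and 84.3 scaled CPM in the nSyb-Gal4 libraries, at least 417-fold higher in nSyb-Gal4. Deadlock (del), a factor of piRNA clusters in the ovary, was at 0 in both insc-Gal4 libraries, against 393 and 48.1 scaled CPM in the nSyb-Gal4 libraries. CG13337 was at 401 and 18.1 scaled CPM in the nSyb-Gal4 libraries and CG42588 at 237 and 145. The last 2 of the 12 had counts in the insc-Gal4 libraries. Eip93F, an ecdysone-induced transcription factor, was at 0.220 and 0 scaled CPM in the insc-Gal4 libraries, against 598 and 255 in the nSyb-Gal4 libraries. Muc14A, a mucin gene, was at 0.439 and 6.20 against 7694 and 823.

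Genes with no counts in 1 group were nearly all on that side. A total of 22 nuclear genes had counts in insc-Gal4 libraries alone and 6033 in nSyb-Gal4 libraries alone, of which 1 and 1492 passed the filter. Those that passed did so through 1 driver's counts, which fixed their order. The nSyb-Gal4 replicate 2 library was the only one to reach 10 counts in 4828 genes. Its counts were also the most even, with the 90th percentile of counts per kilobase 9.38 times the 10th among protein-coding genes of at least 10 counts, against 90.6 and 40.3 in the insc-Gal4 libraries and 104 in nSyb-Gal4 replicate 1. The nuclear count of that library was also the highest of the 4, and the part of depth in these numbers was not tested. Of the 14207 nuclear genes, 1000 had at least 10 counts in all 4 libraries.

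Chemosensory receptors, a list added after values were seen, were almost absent from the insc-Gal4 libraries. Odorant and gustatory receptors are membrane proteins of sensory neurons. Of 120 genes, 0 and 4 reached 10 counts in the insc-Gal4 libraries, against 36 and 118 in the nSyb-Gal4 libraries. Of all 14207 nuclear genes, 1853 and 7323 did in the insc-Gal4 libraries and 5161 and 13903 in the nSyb-Gal4 libraries. Receptors were thus detected less often than all genes in the insc-Gal4 libraries and about as often in the nSyb-Gal4 libraries. Of the 37 receptors that passed the filter, 35 and 33 were at 0 in the insc-Gal4 libraries, against 2 and 0 in the nSyb-Gal4 libraries. They therefore passed through nSyb-Gal4 counts and their order is not counted. Or19b was at 0 in both insc-Gal4 libraries, against 291 and 3.69 scaled CPM in the nSyb-Gal4 libraries. Of 23 genes of the Y chromosome, 0 reached 10 counts in either insc-Gal4 library, and 0 and 8 did in the nSyb-Gal4 libraries.

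Ribosomal RNA remnants differed strongly too. The rRNA pseudogenes, which share sequence with the rRNA genes so that reads of rRNA can be assigned to them, took 64.1% and 24.3% of nuclear counts in the insc-Gal4 libraries, against 0.288% and 8.89% in the nSyb-Gal4 libraries. Protein-coding genes were left with 35.8% and 75.7% of nuclear counts in the insc-Gal4 libraries and 99.2% and 90.8% in the nSyb-Gal4 libraries. For this reason list shares are given over protein-coding counts.

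Mitochondrially encoded genes, which were kept out of the scaling and the test, also differed in their make-up. The cytochrome c oxidase gene mt:CoI took 30.1% and 26.7% of mitochondrial counts in the insc-Gal4 libraries, against 14.3% and 14.5% in the nSyb-Gal4 libraries. The region annotated mt:ori, the origin of replication at 14917 to 19524 of the mitochondrial genome, had 2.04 and 231 counts in the insc-Gal4 libraries, against 6660000 and 842112 counts in the nSyb-Gal4 libraries. As a share of mitochondrial counts this was 0.000152% and 0.0120% in the insc-Gal4 libraries and 7.51% and 6.92% in the nSyb-Gal4 libraries. The short gene mt:ND3 had 2 and 711 counts in the insc-Gal4 libraries, 0.000150% and 0.0368% of mitochondrial counts, against 3.85% and 1.58% in the nSyb-Gal4 libraries. The nSyb-Gal4 libraries were close to each other in mt:CoI and mt:ori and over 2 times apart in mt:ND3, and likewise in mt:ND2 (8.64% and 3.86%) and mt:ATPase8 (1.43% and 3.55%).

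Over the chase, the ribosomal share grew in the insc-Gal4 libraries. At the end of the pulse it was 1.29% and 3.30% of protein-coding counts, at 3 h of chase 1.45% and 3.12%, at 6 h of chase 3.09% and 6.18%, and at the last time point 8.71% and 8.82%. In the nSyb-Gal4 libraries it was 0.0164% and 2.58% at the end of the pulse, 0.288% and 3.68% with 3 h of chase, 0.0577% and 4.37% with 6 h of chase, and 0.327% and 2.58% with 12 h of chase. The 2 groups overlapped at the pulse and did not after 12 h.

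The share of the neuroblast and progenitor regulators went down in the insc-Gal4 libraries over the same times. It was 0.526% and 0.223% at the end of the pulse, 0.432% and 0.218% with 3 h of chase, 0.373% and 0.0807% with 6 h of chase, and 0.0704% and 0.0842% with 12 h of chase. The share of m6A targets was 14.8% and 9.08% at the end of the pulse and 4.93% and 4.29% after 12 h in the insc-Gal4 libraries, against 15.0% and 15.7% and then 18.7% and 16.1% in the nSyb-Gal4 libraries. The rRNA pseudogenes, whose sequence every cell transcribes as rRNA, were at 15.2% and 7.89% of nuclear counts at the end of the pulse and at 64.1% and 24.3% after 12 h in the insc-Gal4 libraries. In the nSyb-Gal4 libraries they were at 0.231% and 4.41% and then at 0.288% and 8.89%. Muscle markers took 10.4% and 6.62% of protein-coding counts at the end of the pulse and 8.83% and 19.1% after 12 h in the insc-Gal4 libraries. Fat body and larval serum protein genes took 3.99% and 5.93% at the end of the pulse and 15.6% and 3.17% after 12 h there. In both lists 1 insc-Gal4 library after 12 h was thus above both pulse libraries and the other was not. In the nSyb-Gal4 libraries muscle markers took 0.181% and 0.755% at the end of the pulse and 0.881% and 3.84% after 12 h. Fat body and larval serum protein genes took 0.923% and 1.44% and then 0.0832% and 1.16% in the nSyb-Gal4 libraries. These shares are descriptions with no test.

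The change of the difference between drivers, from the end of the pulse to 12 h of chase, was tested in edgeR over all 16 libraries. It passed for 1 of 12718 genes (0.00786%), sano. Sano had 705 and 441 counts in the insc-Gal4 libraries at the end of the pulse, against 0 and 1224060 in the nSyb-Gal4 libraries. After 12 h it had 0 and 96 counts in the insc-Gal4 libraries, against 0 and 12361 in the nSyb-Gal4 libraries. Its log2 difference between drivers was higher after 12 h than at the pulse by 9.08, with an adjusted p of 0.0011 in edgeR. The counts of nSyb-Gal4 replicate 2 made up nearly all of the gene. With 1 of the 4 libraries of 12 h chase left out, the change ranged from -1.28 to 23.16. Scaled by nuclear totals it was 1.46, with an adjusted p of 0.959 in edgeR. With a replicate block it was 6.02, with an adjusted p of 0.640 in edgeR.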

How the data were processed

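Per the labels and the methods, the authors trimmed reads with Trimmomatic, mapped them with kallisto against BDGP6 and deposited estimated counts per transcript, with no normalization. Reads of near-identical transcripts are divided by kallisto, and strand handling is not given in the sources used here. Transcripts in both deposited tables (30944) were matched to genes of Ensembl release 115 (BDGP6.54), and 30812 (99.6%) matched 14221 genes, 14207 of them nuclear. Estimated counts were summed per gene and rounded to whole numbers. The 14 mitochondrially encoded genes were kept out of library sizes and tests. No column of unknown sample was present (0 columns).

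The 4 libraries were compared in R (version 4.3.3) with edgeR (version 4.0.16): filterByExpr with a minimum count of 10 kept 9085 genes, TMM factors were 0.469 and 0.572 in insc-Gal4 and 2.25 and 1.65 in nSyb-Gal4, and the quasi-likelihood test was adjusted by Benjamini-Hochberg with a threshold of 0.05. Standard errors are the log2 difference divided by the root of F. Folds against the floor are the mean scaled CPM of 1 group over the mean floor of the group at 0. They bound the ratio of group means and not that of single libraries. The fit was tested on simulated data. DESeq2 (version 1.42.0), other scalings, filters, transcripts, a replicate block and leaving out each library were alternatives. The change from the pulse was tested over 16 libraries.

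The genes named are, in each direction, the 12 with the smallest p among genes whose groups did not overlap (none passed the threshold), the 10 with the highest mean in each cell type, the 4 highest members of each list and the genes past the test of change. Other list members were named after their values were seen. The members and lists were chosen with earlier results of these data known, and the lists of digestive enzymes, rRNA pseudogenes, chemosensory receptors and Y chromosome genes were added after values were seen. The m6A targets are those the study lists. Shares of counts have 95% Wilson intervals of at most 0.0762 percentage points for the lists, which cover counting error only, as does the floor of 3 counts.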

Additional observations from a re-analysis of the deposited data

Results flagged for a closer look

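Sano differed between the end of the pulse and 12 h of chase by the test of the difference itself. Its log2 difference between insc-Gal4 and nSyb-Gal4 libraries was 9.08 higher after 12 h of chase than at the end of the pulse, with an edgeR adjusted p of 0.0011 over 16 libraries. Leaving out 1 library of 12 h chase at a time kept all pulse libraries and left 1 library in the group. The change was then 10.07 without insc-Gal4 replicate 1 and -1.28 without insc-Gal4 replicate 2. It was 8.08 without nSyb-Gal4 replicate 1 and 23.16 without nSyb-Gal4 replicate 2. In the fit with a replicate block it was 6.02, with an adjusted p of 0.64. Scaled by nuclear totals the change was 1.46 with an adjusted p of 0.959, and over 8 libraries it was 10.33 with an adjusted p of 0.461, so no call was made by edgeR under either.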

How the results depend on the processing

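The count of genes called was 0 in each direction under every scaling, with no filter, by transcript, over 16 libraries and with a replicate block. With a minimum count of 100 it was 1 higher in insc-Gal4 and 78 higher in nSyb-Gal4, and with DESeq2 257 and 805, where 3347 genes had no adjusted p. Leaving out 1 library gave 0 to 114 genes higher in insc-Gal4 and 0 to 5 higher in nSyb-Gal4, with 21 and 1 without nSyb-Gal4 replicate 1 and 114 and 5 without nSyb-Gal4 replicate 2. The lone library was assumed to vary like the other group. Genes with both insc-Gal4 libraries above both nSyb-Gal4 libraries (860) were 347 by nuclear totals and 402 by all counts, and 936 to 3182 without 1 library. The opposite order (3008) was found in 3215 to 5056 without 1 library. These orders under other settings, and the list counts without a library, were chosen after seeing the data. The insc-Gal4 replicate 1 library had 3822 genes with at least 1 count. The change from the pulse passed for 0 genes over 8 libraries, 0 with the replicate block and 14 by nuclear totals. Replicate numbers are shared by the drivers in 2 pairs only. Deviations of same-numbered libraries correlated at 0.22 across genes, which over 2 pairs does not settle whether the numbers mark a pairing between drivers. Within nSyb-Gal4 the numbers went with the mitochondrial share at every time. From the pulse to 12 h of chase it was 88.8%, 86.3%, 92.1% and 91.6% in replicate 1. In replicate 2 it was 2.75%, 5.07%, 7.65% and 11.9%. In the insc-Gal4 libraries it was 9.67% to 12.8%. The main fits held no term for the replicate. The cause of the changes between settings was not tested.

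List medians are log2 differences relative to all genes. With no filter they were 7.00 for cytosolic ribosomal proteins, 6.94 for muscle markers, 6.11 for proteasome subunits, 5.52 for cytoskeleton, 5.10 for translation factors, 4.95 for mitochondrial ribosomal proteins, 4.61 for chaperones, 3.37 for hemocyte markers, 2.69 for glial markers, 2.62 for mRNA decay factors, 1.56 for m6A targets, 1.35 for m6A writers and readers, 1.31 for neuroblast and progenitor regulators and -0.64 for the cell cycle. The replicate block gave 7.31 for cytosolic ribosomal proteins, 7.04 for the respiratory chain, 5.90 for muscle, 4.95 for chaperones, 4.87 for cytoskeleton, 4.81 for proteasome subunits, 3.29 for mitochondrial ribosomal proteins and 1.00 for glia. The fit over 16 libraries gave 6.09 for muscle, 5.24 for proteasome subunits, 3.96 for mitochondrial ribosomal proteins, 3.76 for chaperones, 1.82 for glia and -5.51 for salivary gland glue proteins. DESeq2 size factors gave 9.61 for fat body, 6.29 for muscle and 5.55 for cytoskeleton, and the DESeq2 test 9.61, 6.30 and 5.56. A minimum count of 100 gave 7.62 for ring gland markers and 2.27 for mitochondrial ribosomal proteins, and scaling by all counts -0.90 for the cell cycle.

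Without 1 library, list medians ranged from 4.03 to 13.68 for cytosolic ribosomal proteins, 3.88 to 13.38 for the respiratory chain, 3.88 to 13.69 for muscle, 2.93 to 16.87 for fat body, 3.05 to 9.09 for proteasome subunits, 3.13 to 10.35 for translation factors, 1.83 to 7.51 for chaperones, 2.18 to 12.72 for cytoskeleton, 0.84 to 6.71 for mitochondrial ribosomal proteins, 1.46 to 6.47 for hemocyte markers and 0.55 to 7.68 for ring gland markers, all above 0. They ranged on both sides of 0 for neuronal genes (-2.75 to 8.67), neuroblast and progenitor regulators (-3.26 to 3.72), m6A targets (-3.86 to 2.81), mRNA decay factors (-3.16 to 4.35), m6A writers and readers (-0.56 to 3.48), glia (-0.70 to 3.45) and salivary gland glue proteins (-8.35 to 5.07). The cell cycle ranged from -1.37 to -0.29. Without 1 library, relative log2 differences ranged from -8.86 to 2.85 for CG5693, -8.28 to 2.51 for CG8292, -8.64 to 2.41 for SIFa, -9.13 to 2.19 for CG12126, -9.63 to 2.05 for CG18788, -8.91 to 1.89 for CG34134 and -17.35 to 0.0058 for Eip93F. Each was above 0 only without insc-Gal4 replicate 2, where the median of all genes, from which differences are counted, was -10.91.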
